A study of Mus musculus with 2 samples.

Results

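The MHC class I presentation genes described here are 10 named genes: B2m, H2-K1, H2-D1, H2-Q7, H2-T23, Tap1, Tapbp, Psmb8, Psmb9 and Nlrc5. They were chosen by name, with earlier results of these data known, and all 10 were among the 15169 genes listed in both libraries. The samples were 2 single-cell libraries, made with a 10x 3' kit from CD45+ cells sorted by flow cytometry from retinas of B6 mice. In both groups glaucoma had been induced with microbeads, which are injected into the eye to raise its pressure. The PBS group received buffer and the Igfbpl1 group received Igfbpl1, a secreted protein related to the insulin-like growth factor binding proteins. Each library pooled the retinas of 10 mice aged 8 to 10 months, after perfusion with saline and 1 hour of enzyme digestion, so no value below has a replicate, and the libraries cannot be told apart from the treatments. The PBS library held 1055 cells and the Igfbpl1 library 3330, and they shared 0 cell barcodes.

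MHC class I molecules display peptides from inside the cell to CD8 T cells and natural killer (NK) cells. A polymorphic heavy chain pairs with the light chain beta-2 microglobulin around a peptide that the proteasome has cut and that the TAP transporter has carried into the endoplasmic reticulum. Interferons raise the genes of this pathway together, and they also exchange the constitutive catalytic subunits of the proteasome for inducible ones, which makes the immunoproteasome. Neurons are known for low class I levels at rest, and microglia, the resident macrophages of the retina, for raising class I when activated.

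Of the 10 genes, 8 lie in the MHC region of mouse chromosome 17 (mm10, GENCODE M21 annotation). From low to high coordinates they are Tapbp (chr17:33915899-33929292, plus strand), H2-K1 (chr17:33996017-34000347, minus), Psmb9 (chr17:34181987-34187764, minus), Tap1 (chr17:34187553-34197225, plus), Psmb8 (chr17:34197721-34201454, plus), H2-D1 (chr17:35262730-35267499, plus), H2-Q7 (chr17:35439155-35443773, plus) and H2-T23 (chr17:36029773-36032855, minus). B2m is at chr2:122147686-122153083 (plus) and Nlrc5 at chr8:94434356-94527272 (plus). Tap1 and Psmb9 overlap at their starts on opposite strands. H2-T23, Tapbp and Psmb8 overlap antisense genes, B2m overlaps Patl2, and no source names the strand setting of the counting. A 3' library reads the end of a transcript, so the share of 60-base words in the last 300 bases that occur in no other annotated gene was computed. It was 100% for 8 of the 10 genes, 90.9% for H2-D1 and 59.3% for H2-T23, so H2-T23 in particular could share reads with other genes.

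The promoters are shown because the light chain and the heavy chains are known to answer to the same factors. Nlrc5, the class I transactivator, acts through a module whose X2 box binds CREB-type factors and whose Y box binds NF-Y, and next to it lie sites for NF-kappa B and for interferon regulatory factors. RefSeq's table on GRCm38.p6, the mm10 build, matched 9 of the 10 genes, all but Nlrc5, and the windows hold the 250 bases before RefSeq's start. GENCODE M21 starts several genes further upstream, so that the windows of H2-D1, H2-T23, Tap1, Tapbp, Psmb8 and Psmb9 run into its 5′ UTR annotation (that of B2m ends on its first base), and those of H2-D1, Tapbp, Psmb8 and Psmb9 lie wholly inside its gene spans. Searched on both strands were TGACG (X2 core), ATTGG (Y box), AANNGAAA (core of the interferon-stimulated response element) and GGNNTTNCC (kappa B site); the TGACG and ATTGG pair counted where their starts lay 20 to 30 bases apart. Each sequence runs 5′ to 3′ on the strand of its gene, and capitals mark these matches, which do not overlap. The whole windows of B2m (chr2:122147437-122147686, plus strand) and H2-K1 (chr17:34000348-34000597, minus strand) come first.
B2m: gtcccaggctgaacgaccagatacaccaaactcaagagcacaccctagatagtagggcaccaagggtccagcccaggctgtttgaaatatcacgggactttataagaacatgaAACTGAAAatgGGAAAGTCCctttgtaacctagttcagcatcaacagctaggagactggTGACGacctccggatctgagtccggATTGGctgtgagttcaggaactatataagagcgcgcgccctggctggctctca
H2-K1: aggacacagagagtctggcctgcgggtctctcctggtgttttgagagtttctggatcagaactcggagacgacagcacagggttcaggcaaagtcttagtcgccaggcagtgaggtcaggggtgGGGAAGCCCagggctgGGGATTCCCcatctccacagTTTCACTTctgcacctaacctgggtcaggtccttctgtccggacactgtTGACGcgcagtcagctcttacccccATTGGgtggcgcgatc

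For the other heavy chains with the pair, the stretch from kappa B site to interferon core and the stretch from X2 core to Y box are set side by side. They are H2-D1 at chr17:35262924-35262951 and chr17:35262993-35263022, and H2-Q7 at chr17:35439023-35439049 and chr17:35439091-35439119, all on the plus strand.
H2-D1 kappa B site and interferon core: GGGATTCCCcatctcctcagTTTCACTT
H2-Q7 kappa B site and interferon core: GGGATTCCCatctccccagTTTCACTT
H2-D1 X2 core to Y box: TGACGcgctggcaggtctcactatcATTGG
H2-Q7 X2 core to Y box: TGACGtgtaacagttctcacccctATTGG

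The TGACG and ATTGG pair was present in the windows of B2m, H2-K1, H2-D1 and H2-Q7, that is in 4 of 9, against 0.381% of all 32851 windows in the table. The same 4 windows held 1 interferon core each, and 1 (B2m) or 2 (the heavy chains) kappa B matches, which 21.3% and 13.5% of all windows held. In H2-K1, H2-D1 and H2-Q7 the kappa B match nearest the interferon core read GGGATTCCC and lay upstream of it, whereas in B2m the order was the opposite. H2-T23 had 2 interferon cores and no TGACG. By itself TGACG was in 17.8% and ATTGG in 33.8% of windows, and the windows of Tap1 and Psmb9, which share most of their bases, held 1 match of each outside the spacing set. Tapbp held 2 ATTGG matches and Psmb8 held none of these motifs. A match describes letters and shows no binding.

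Cells were put into classes by the UMIs (unique molecular identifiers, each counting 1 captured transcript) of fixed marker genes. Levels are in CPM, the UMIs of a gene summed over a class in a library and scaled to the class total, given with exact 95% intervals that cover counting error only. A 3' count does not grow with transcript length, so a level here is a number of captured transcript ends. Microglia-like cells numbered 663 in the PBS and 1510 in the Igfbpl1 library (2335548 and 3401877 UMIs), with a median of 3389 and 2008.5 UMIs per cell. All 10 microglial markers were detected in both. Of the other classes, 2 had at least 20 cells in both libraries besides the pooled bipolar and amacrine neurons: T cell-like (30 and 265) and B cell-like (75 and 42). Border macrophage-like (23) and photoreceptor-like cells (39) reached 20 in the PBS library alone, and monocyte-like (104), dendritic-like (78), plasmacytoid dendritic-like (45), NK-like (153) and Müller glia or astrocyte-like cells (25) in the Igfbpl1 library alone. Bipolar and amacrine neuron-like cells numbered 26 and 118, although the sort was for CD45, which neurons lack. Between 17.6% (PBS) and 29.2% (Igfbpl1) of cells stayed unassigned, many of them with markers of several classes. The plasmacytoid dendritic-like cells also carried markers of the monocyte list at 5299 CPM beside 7331 CPM of their own.

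In microglia-like cells the light chain and the classical heavy chains were the most abundant of the 10 genes, and all were higher in the Igfbpl1 library. B2m, the light chain of every class I molecule, stood at 2187.5 CPM (2128 to 2248) in PBS and 2792 CPM (2736 to 2848) in Igfbpl1, a ratio of 1.28 (1.23 to 1.32). It was found in 97.6% and 95.8% of cells. After each cell had been thinned to 1000 UMIs, the share was 82.4% and 89.5%, against 3.85% and 1.69% of bipolar and amacrine neuron-like cells thinned alike, so the order of the libraries turned once depth was equal.

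H2-K1, a classical heavy chain that presents to CD8 T cells, stood at 750 and 1078 CPM (ratio 1.44, 1.36 to 1.52). H2-D1, the other classical heavy chain, stood at 1300 and 1878 CPM (1.44, 1.38 to 1.51). Neither pair of intervals overlapped between the libraries. H2-Q7, a nonclassical chain of the Qa-2 group, was lower in level but had a larger ratio, from 52.2 CPM (43.4 to 62.4) to 115 CPM (104 to 127), 2.21-fold (1.80 to 2.73). H2-T23, which encodes Qa-1 and presents a leader peptide of other class I chains to NK receptors, did not follow: it stood at 300.1 and 270.1 CPM, a ratio of 0.900 (0.815 to 0.994).

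The peptide supply genes were mixed. Psmb9, an inducible catalytic subunit of the proteasome, stood at 77.1 and 125 CPM (1.62, 1.36 to 1.95). Psmb8, another inducible subunit, stood at 230.4 and 253 CPM (1.10, 0.983 to 1.22), with an interval that includes equality. Tap1, a subunit of the peptide transporter, stood at 34.3 and 45.3 CPM (1.32, 1.00 to 1.75). Tapbp encodes tapasin, which holds the empty heavy chain at the transporter, and it was the gene with a clearly lower level, at 131 CPM (117 to 147) in PBS and 83.2 CPM (73.8 to 93.5) in Igfbpl1, a ratio of 0.635 (0.538 to 0.749). Nlrc5, the transactivator, was the least abundant, at 18.0 CPM (42 UMIs) and 42.3 CPM (144 UMIs), a ratio of 2.35 (1.66 to 3.40).

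Genes counted as measured where the mean of both libraries reached 50 CPM on at least 20 UMIs, and a ratio was called at 1.5-fold on the scale of log2(CPM + 10). By that fold 3 of the 10 genes were higher in the Igfbpl1 library (H2-Q7, Psmb9 and Nlrc5) and 1 was lower (Tapbp). Nlrc5 lay below the level for measured genes. Of the 3318 genes measured in microglia-like cells, 3.68% were higher and 5.33% lower, and among the 8 class I genes measured 2 were higher and 1 lower. The median log2 ratio of the 10 genes was 0.43, from -0.60 to 1.01, beside -0.12 over all genes measured. With each ratio set against that median of all genes, 5 genes passed 1.5-fold upward. H2-K1 (1.56) and H2-D1 (1.57) were among them, as was Nlrc5, which is below the level for measured genes. Tapbp, at 0.690, was no longer called lower. The share of all genes called was not computed on this scale, so this count has no share to stand beside.

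Summed markers of other cells also differed between these microglia-like cells, in both directions. The summed monocyte list stood at 27.0 CPM in PBS (6 of 9 markers detected; Chil3, F10 and Ace at 0) and 63.5 CPM in Igfbpl1 (8 of 9; Ace at 0). The T cell list stood at 2.57 and 13.5 CPM (4 and 8 of 12 detected, with Trdc and Tcrg-C1 at 0 in both) and the NK list had 2 and 17 UMIs (1 and 7 of 8 detected, Eomes at 0 in both). Lower in Igfbpl1 were the summed dendritic list (125 and 75.8 CPM), plasmacytoid dendritic list (936 and 519 CPM) and B cell list (195 and 133 CPM). A single gene made up most of each sum: Fscn1 (122 and 67.6 CPM), Siglech (933 and 495 CPM) and Ighm (170 and 107 CPM). More markers were nevertheless detected in Igfbpl1 for the dendritic (4 and 9 of 10) and plasmacytoid dendritic lists (3 and 5 of 6). For the B cell list 7 and 6 of 8 were detected. The rod list (59.9 and 39.7 CPM) and the Müller glia and astrocyte list (462 and 381 CPM) were also lower. The border macrophage list was level (28.3 and 28.2 CPM). Cd74, a class II chaperone of antigen-presenting cells, stood at 490 and 741 CPM, whereas the microglial gene P2ry12 (1465 and 763 CPM) was lower in Igfbpl1. The part of these differences in the class I ratios was not tested.

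**Figure D1:**
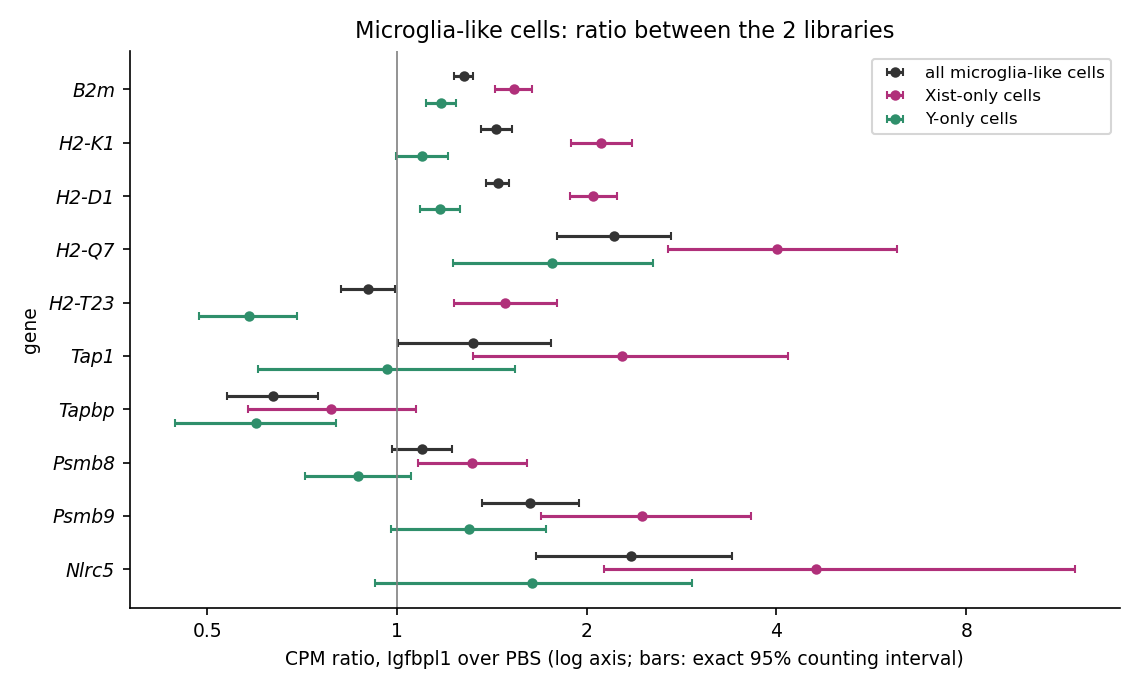
Ratio of CPM in the Igfbpl1 over the PBS library for each gene in microglia-like cells, on a log axis, for all cells (black), Xist-only cells (purple) and Y-only cells (green), with exact 95% counting intervals. The purple points lie to the right of the green ones for all 10 genes, and H2-T23 lies on opposite sides of 1 (1.48 and 0.582).

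The pooled mice left a mark by which cells could be split. Cells with Xist UMIs and none of Ddx3y, Eif2s3y, Kdm5d and Uty are called Xist-only, and cells with UMIs of these Y-linked genes and none of Xist are called Y-only. Xist-only microglia-like cells numbered 170 in PBS and 531 in Igfbpl1, and Y-only cells 302 and 395, so their mixture differed between the libraries. As the plot of ratios by gene shows, the class I genes differed more between the libraries among Xist-only cells. Their median log2 ratio was 0.99 there (all genes -0.17) and 0.18 among Y-only cells (all genes -0.05). Among Xist-only cells 7 of 10 genes were called higher, Tap1 and Nlrc5 below the level for measured genes, and 0 lower, in a comparison in which 9.6% of all genes were higher and 19.0% lower. Among Y-only cells 1 was higher (H2-Q7) and 2 were lower (H2-T23 and Tapbp), where 2.79% of all genes were higher and 4.0% lower. In both sets H2-Q7 reached the level for measured genes only through the Igfbpl1 side (47.1 and 46.3 CPM in PBS).

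H2-K1 stood at 659 and 1391 CPM in Xist-only cells (2.11, 1.89 to 2.36) and at 789 and 865 CPM in Y-only cells (1.10, 0.996 to 1.21). H2-D1 gave 2.05 (1.88 to 2.23) and 1.17 (1.09 to 1.26). H2-Q7 stood at 47.1 and 189 CPM in Xist-only cells (4.01, 2.69 to 6.21) and at 46.3 and 81.7 CPM in Y-only cells (1.76, 1.23 to 2.55). H2-T23 went in opposite directions, from 256 to 380 CPM in Xist-only cells (1.48, 1.23 to 1.80) and from 336 to 195 CPM in Y-only cells (0.582, 0.485 to 0.695). Tapbp was lower in both, at 0.786 (0.581 to 1.07) and 0.598 (0.444 to 0.801). The labels do not say which mice the cells came from, and the difference between the sets was not tested.

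Interferon is a known inducer of this pathway, so microglia-like cells, each thinned to 1000 UMIs, were split by UMIs of 16 interferon-response genes that include none of the 10. Cells with 0, 1 to 2, and 3 or more such UMIs made up 64.6%, 25.3% and 10.1% of PBS cells and 32.5%, 37.2% and 30.4% of Igfbpl1 cells. The 10 genes summed stood at 4297, 5601 and 7119 CPM along these bins in PBS and at 4920, 6193 and 8168 CPM in Igfbpl1. In each library the level increased with the interferon UMIs, and the top bin was 1.66-fold (1.495 to 1.83) and 1.66-fold (1.58 to 1.75) above the bin with 0.

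**Figure D2:**
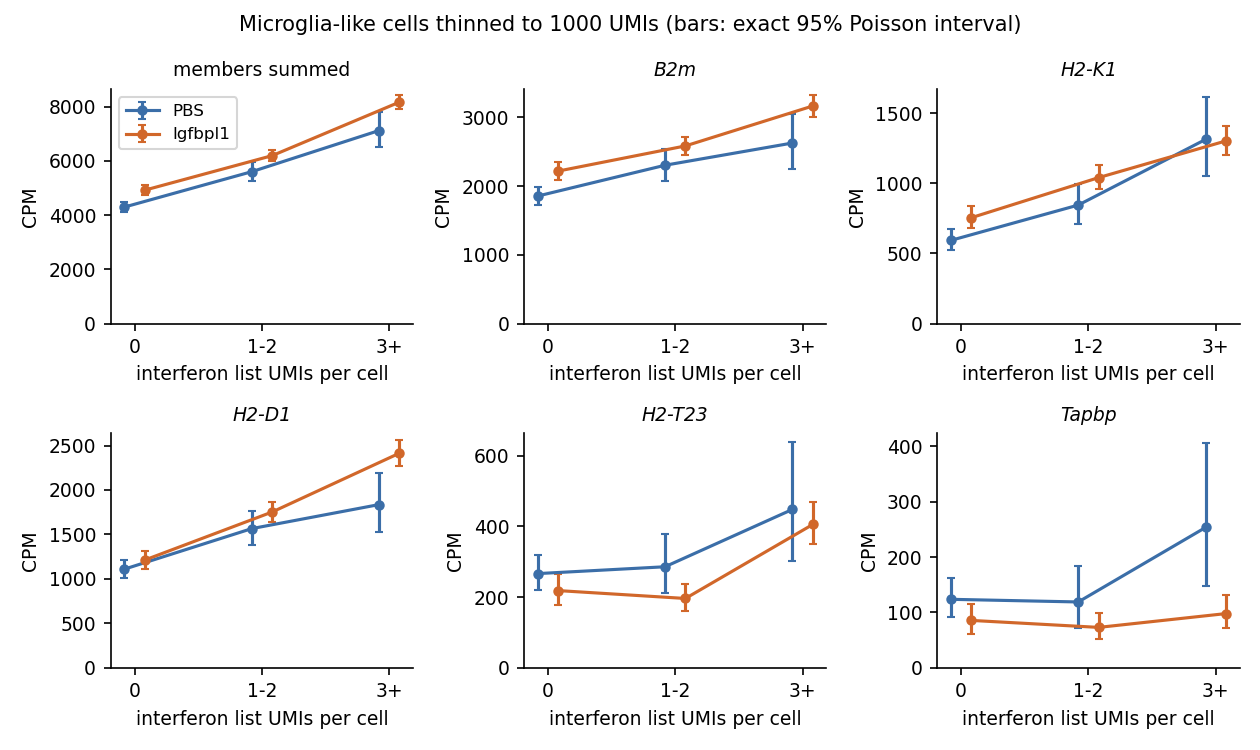
Level in CPM (each panel from 0) of the 10 genes summed and of 5 genes in microglia-like cells with 0, 1 to 2, and 3 or more UMIs of the interferon list, after thinning to 1000 UMIs, PBS in blue and Igfbpl1 in orange, with exact 95% Poisson intervals. The sums climb from 4297 to 7119 CPM in PBS and from 4920 to 8168 CPM in Igfbpl1, and Tapbp in Igfbpl1 stays between 73.1 and 98.0 CPM.

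All 10 genes stood higher in the top bin than in the bin with 0 in both libraries, some of them on few UMIs. H2-Q7 was 3.93-fold (1.41 to 10.2) higher in PBS and 2.82-fold (1.75 to 4.66) in Igfbpl1, and Tap1 was 2.90-fold (0.791 to 9.07) and 2.27-fold (1.22 to 4.401). H2-K1 in the top bin was 2.21-fold (1.72 to 2.83) above the bin with 0 in PBS and 1.73-fold (1.51 to 1.97) in Igfbpl1, and H2-D1 was 1.65-fold (1.35 to 2.02) and 1.99-fold (1.80 to 2.20). B2m was 1.42-fold and 1.43-fold. H2-T23, which was not higher in the Igfbpl1 library as a whole, was 1.68-fold (1.09 to 2.53) and 1.86-fold (1.46 to 2.38) higher in the top bin, although the middle bin in Igfbpl1 stood at 196 CPM beside 218 CPM in cells with 0. Tapbp was 2.05-fold (1.11 to 3.60) in PBS on 17 UMIs and 1.14-fold (0.734 to 1.78) in Igfbpl1. In the same top bins P2ry12 was 0.633 and 0.547 times and Ptprc, which encodes CD45, 1.14 and 1.04 times its level in cells with 0.

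Within a bin the median ratio between the libraries was smaller than over all microglia-like cells. The median log2 ratio of the 10 genes, Igfbpl1 over PBS, was 0.21 in cells with 0 interferon UMIs, 0.16 with 1 to 2 and 0.14 with 3 or more, beside medians over all genes of -0.09, -0.10 and -0.21. Among cells with 0 such UMIs, B2m stood at 1855 and 2218 CPM (1.20, 1.09 to 1.31), H2-K1 at 593 and 755 CPM (1.27, 1.08 to 1.499) and H2-D1 at 1110 and 1212 CPM (1.09, 0.967 to 1.23). The intervals of the first and second of these lay above equality and that of H2-D1 included it. Some genes lay farther apart within a bin than over all microglia-like cells, among them Tapbp in the top bin (0.386, 0.217 to 0.720), Nlrc5 in the bin with 0 (2.97, 1.05 to 10.3) and H2-T23 in the middle bin (0.686, 0.485 to 0.984).

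Across the classes, immune cells other than B cell-like and border macrophage-like cells had more class I transcripts than microglia-like cells of the same library. With the 10 genes summed, microglia-like cells stood at 5081 CPM in PBS and 6681 CPM in Igfbpl1. In Igfbpl1 the ratio to microglia-like cells was 1.74 (1.68 to 1.81) in dendritic-like, 1.47 (1.40 to 1.55) in plasmacytoid dendritic-like, 1.36 (1.31 to 1.41) in NK-like, 1.28 (1.24 to 1.31) in T cell-like, 1.25 (1.21 to 1.30) in monocyte-like and 0.634 (0.557 to 0.720) in B cell-like cells. From plasmacytoid dendritic-like to monocyte-like cells the intervals of neighbours in that order overlap, so those neighbours are not resolved. In PBS the ratio was 1.22 (1.13 to 1.32) in T cell-like, 0.953 (0.872 to 1.04) in border macrophage-like and 0.925 (0.861 to 0.992) in B cell-like cells.

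**Figure D3:**
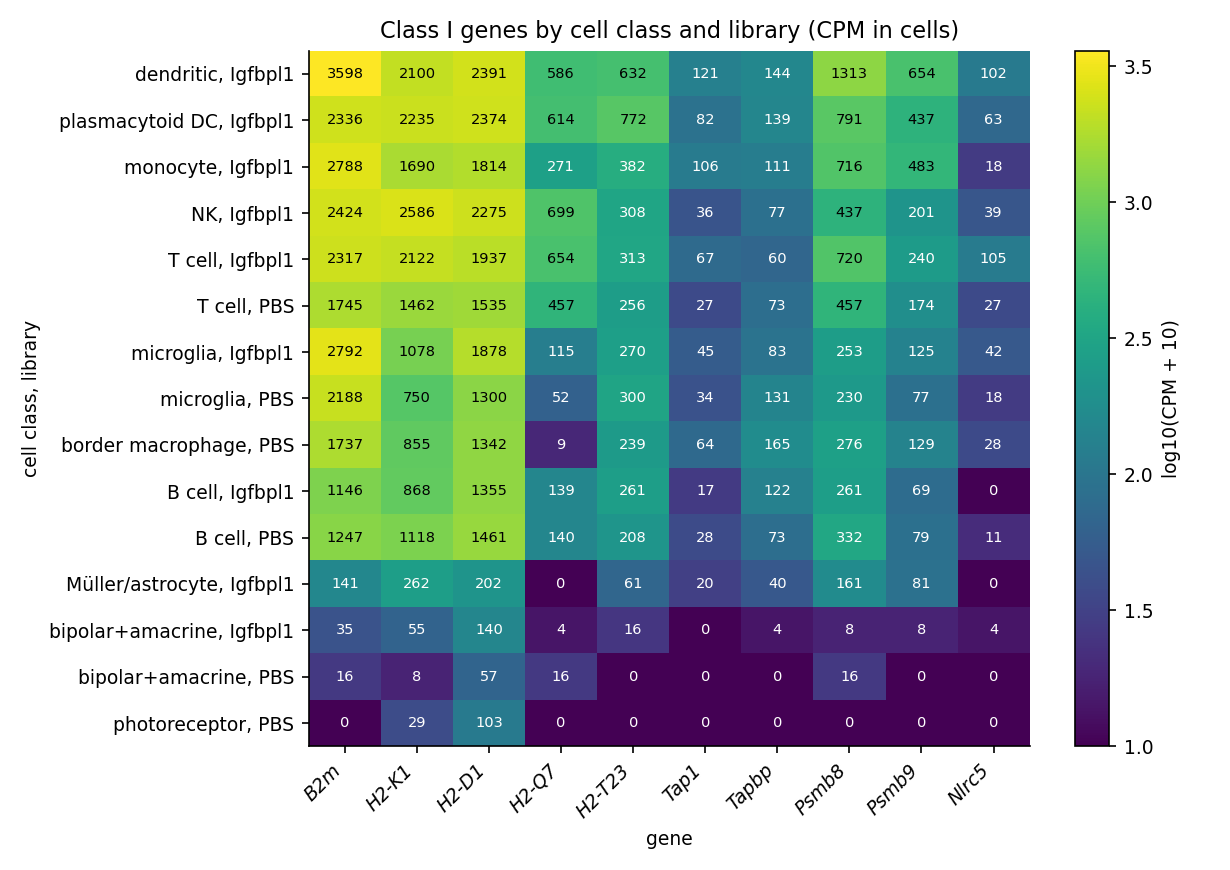
Level in CPM (numbers) of each gene in each class and library with at least 20 cells, bipolar and amacrine cells pooled, coloured by log10(CPM + 10). B2m, H2-K1 and H2-D1 are high in all immune classes, H2-Q7 is highest in NK-like (699 CPM) and T cell-like cells, and in the pooled neuron and the photoreceptor lines H2-D1 is the highest gene, at up to 140 CPM.

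Dendritic-like cells, which prime T cells, were higher than microglia-like cells by 1.5-fold for 8 of the 10 genes, in a comparison in which 26.2% of all genes were. Of the 8, Tap1 and Nlrc5 passed the filter only through their dendritic-like level (121 and 102 CPM, beside 45.3 and 42.3 CPM in microglia-like cells). B2m stood at 3598 CPM, H2-K1 at 2100 CPM (1.95, 1.78 to 2.13) and Psmb8 at 1313 CPM (5.20, 4.58 to 5.90). B2m and H2-D1 were the exceptions, at 1.29-fold and 1.27-fold. Among these cells, the 38 with UMIs of Ccr7 and Fscn1, genes of dendritic cells that migrate to lymph nodes, carried B2m at 5525 CPM and H2-K1 at 3479 CPM. The other 40 stood at 2603 and 1388 CPM, with intervals well apart. Plasmacytoid dendritic-like cells were higher than microglia-like cells for 7 genes (31.0% of all genes), with H2-T23 at 772 CPM, its highest level in any class. Tap1, among the 7, passed the filter only through its level in plasmacytoid dendritic-like cells (82.3 CPM).

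In T cell-like and NK-like cells H2-Q7 had the largest ratio to microglia-like cells. It stood at 654 CPM in T cell-like and 699 CPM in NK-like cells of the Igfbpl1 library, 5.68-fold (4.95 to 6.52) and 6.06-fold (5.16 to 7.12) above microglia-like cells, and at 457 CPM in T cell-like cells of the PBS library, 8.75-fold (6.16 to 12.2). The intervals of dendritic-like (5.09, 4.20 to 6.14) and plasmacytoid dendritic-like cells (5.33, 4.22 to 6.67) overlap those of the Igfbpl1 library. B cell-like cells stood at 1.21 (0.517 to 2.40) in Igfbpl1, on 8 UMIs, and at 2.69 (1.67 to 4.16) in PBS, on 25 UMIs. H2-K1 was 1.97-fold (1.85 to 2.09) higher in T cell-like and 2.40-fold (2.23 to 2.58) in NK-like cells. B2m went the other way, at 0.830 (0.787 to 0.875) and 0.868 (0.809 to 0.9303), as it did in plasmacytoid dendritic-like cells (0.837, 0.752 to 0.929). In Igfbpl1, 5 of the 10 genes were called higher in T cell-like cells (28.6% of all genes) and 4 in NK-like cells (27.4%), and in PBS 4 in T cell-like cells (22.4%) with Tapbp called lower (41.5% of all genes). Nlrc5, among the 5, passed the filter only through its level in T cell-like cells (105 CPM).

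Nlrc5 did not follow the heavy chains in NK-like and monocyte-like cells, on 14 and 7 UMIs. It stood at 105 CPM in T cell-like and 102 CPM in dendritic-like cells of the Igfbpl1 library, but at 38.5 CPM (21.1 to 64.6) in NK-like cells, which had the highest H2-K1 level of any class at 2586 CPM, and at 18.1 CPM (7 UMIs) in monocyte-like cells. Monocyte-like cells, whose 5 genes called higher included Psmb8 and Psmb9 (24.1% of all genes were higher) and whose Nlrc5, below the level for measured genes, was called lower (42.1%), had Psmb9 at 483 CPM, 3.86-fold (3.23 to 4.59) above microglia-like cells, with B2m at 0.999 (0.937 to 1.06). Tap1, also among the 5, passed the filter only through its level in monocyte-like cells (106 CPM). Of the 8 genes measured in B cell-like cells of Igfbpl1, 0 were called higher and 2 lower (31.3% and 32.8% of all genes), on 244 class I UMIs.

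Between the libraries, T cell-like cells gave a median log2 ratio of 0.48, beside 0.13 over all genes. Psmb8 stood at 457 and 720 CPM (1.58, 1.18 to 2.15) and H2-K1 at 1462 and 2122 CPM (1.45, 1.23 to 1.72), and 2 of the 9 genes measured were called higher where 25.7% of all genes were. That count is near the share of all genes, and the PBS side had 30 cells. Nlrc5, called beside Psmb8, had 3 UMIs there and 72 in Igfbpl1, and it passed the filter only through the Igfbpl1 side. In B cell-like cells the median was -0.14 (all genes -0.04), with 1 of the 7 genes measured called higher (13.3% of all genes) and 0 lower (16.7%), and the interval of every ratio included equality.

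The exchange of proteasome subunits was read as the share of the inducible subunit in the UMIs of each pair. In microglia-like cells Psmb8 made up 72.2% (68.8 to 75.4, Clopper-Pearson 95%) of Psmb8 and Psmb5 in PBS and 75.2% (72.6 to 77.7) in Igfbpl1. Psmb9 made up 40.4% (35.9 to 45.2) and 52.0% (48.5 to 55.4) of Psmb9 and Psmb6, with intervals that do not overlap. Psmb10, the remaining inducible subunit, made up 56.9% (51.7 to 62.0) and 60.2% (55.8 to 64.4) of Psmb10 and Psmb7. The constitutive partners had ratios near 1 between the libraries: 0.939 for Psmb5, 1.02 for Psmb6 and 0.907 for Psmb7.

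**Figure D4:**
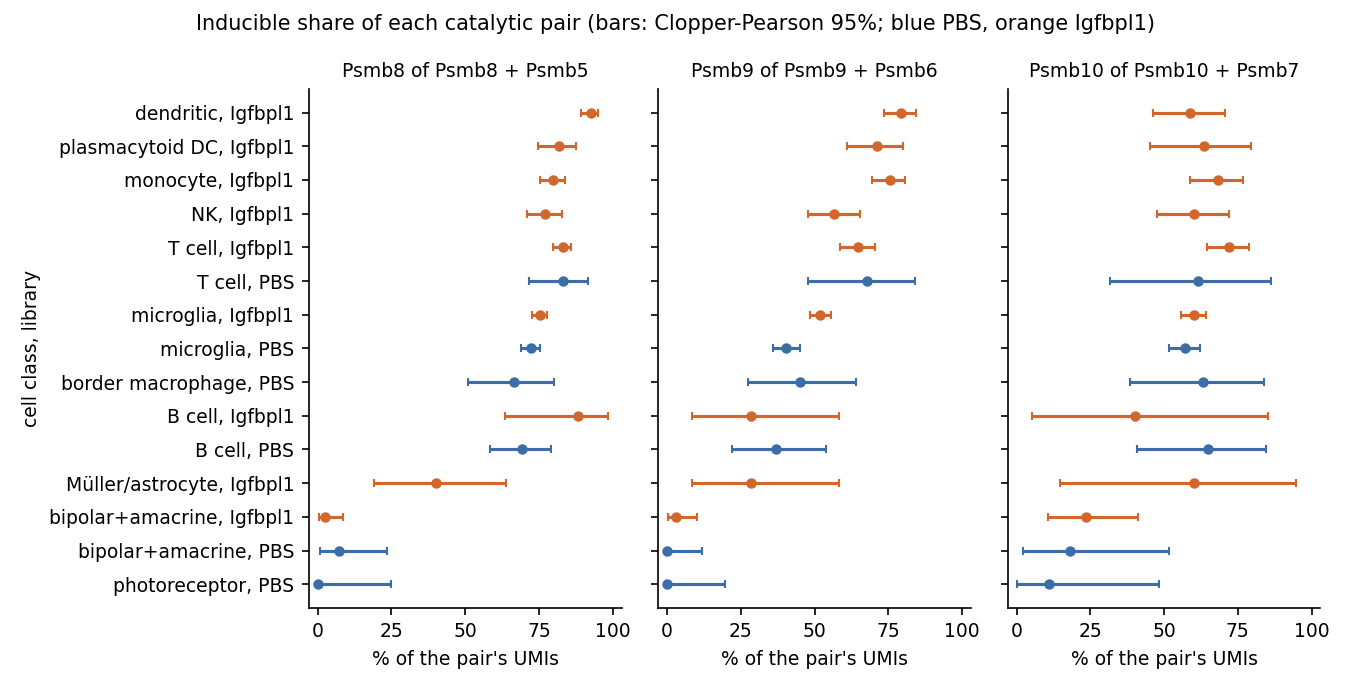
Share (%) of the inducible subunit in the UMIs of each catalytic pair by class and library, with Clopper-Pearson 95% intervals, PBS in blue and Igfbpl1 in orange. For Psmb8 the shares run from 92.5% in dendritic-like cells to 2.5% in bipolar and amacrine neuron-like cells of the Igfbpl1 library, and microglia-like cells lie between.

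Dendritic-like cells had the highest shares for Psmb8 (92.5%, 89.4 to 94.98) and Psmb9 (79.4%, 73.4 to 84.5), as the plot of shares by class shows. T cell-like cells of the Igfbpl1 library stood at 83.0% and 64.7%, and in the PBS library at 83.3% and 67.9%, so these shares were close between the libraries. In bipolar and amacrine neuron-like cells Psmb8 gave 2 of 28 UMIs in PBS (7.14%, 0.877 to 23.5) and 2 of 80 in Igfbpl1 (2.5%, 0.304 to 8.74). Psmb9 gave 0 of 29 and 2 of 69 UMIs. Psmb10 was less low, at 23.5% (10.7 to 41.2) in Igfbpl1 on 34 UMIs. Photoreceptor-like cells of the PBS library had 0 UMIs of Psmb8 or Psmb9 beside 13 of Psmb5 and 17 of Psmb6.

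Neurons carried few class I transcripts, and H2-D1 gave more of them than any other of the 10 genes. Bipolar and amacrine neuron-like cells had 14 UMIs of the 10 genes in PBS, 115 CPM (62.6 to 192), and 70 in Igfbpl1, 273 CPM (213 to 345), which is 0.0225 and 0.0409 times the level of microglia-like cells. With a looser marker rule, which ignored markers of other classes and was chosen after seeing the data, the Igfbpl1 level was 760 CPM. Of the 10 genes 6 (PBS) and 7 (Igfbpl1) were measured in the comparison with microglia-like cells, and each was called lower, where 32.5% and 30.2% of all genes were. In photoreceptor-like cells of the PBS library the 6 measured were lower (37.0% of all genes). These genes passed the filter through their level in microglia-like cells. The rest had few UMIs, and for H2-Q7 and Nlrc5 in the PBS neurons the ratio could reach 1.16 and 1.75. H2-D1 made up 7 of the 14 UMIs and 36 of the 70, and in PBS photoreceptor-like cells 7 of 9. B2m gave 2, 9 and 0 UMIs in these 3 groups, and for photoreceptor-like cells 0 UMIs allow up to 44.1 CPM. Between the libraries only H2-D1 was measured in the neurons, at 57.3 CPM (23.03 to 118) in PBS and 140.5 CPM (98.4 to 195) in Igfbpl1, 2.45-fold (1.08 to 6.53).

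Free RNA from other cells reaches every droplet, so 10 immune genes that neurons lack, such as C1qa, Tyrobp and Cd74, were counted in the same neurons. They stood at 213 CPM (139 to 312) in PBS and 702 CPM (604 to 813) in Igfbpl1, so they were 3.30-fold apart while the class I genes were 2.38-fold apart. For each UMI of these immune genes the neurons had 0.538 (0.260 to 1.07) class I UMIs in PBS and 0.389 (0.291 to 0.515) in Igfbpl1, against 0.147 and 0.181 in microglia-like cells and 0.160 and 0.300 over all cells. T cell-like cells had 4.76 and 3.01 and B cell-like cells 0.365 and 0.340. The neurons' value lies above that of microglia-like cells in both libraries, and in PBS above that of all cells. In Igfbpl1 the interval of the neurons, from 0.291, includes the value over all cells, and in both libraries it includes that of B cell-like cells. Cd74 led the immune genes of the Igfbpl1 neurons, with 47 UMIs.

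The ratio of H2-D1 to B2m UMIs also differed between the classes. It was 0.594 (0.568 to 0.622) in PBS and 0.673 (0.652 to 0.694) in Igfbpl1 microglia-like cells, between 0.651 and 1.18 in the other immune classes of Igfbpl1, and 0.719 (0.705 to 0.733) over all cells of that library. In bipolar and amacrine neuron-like cells it was 4.0 (1.89 to 9.44) in Igfbpl1 and 3.5 (0.666 to 34.5) in PBS. The Igfbpl1 interval lies above those of the immune classes, and the PBS interval does not. Neurons of all types with no UMI of the 10 immune genes had 6 H2-D1 and 0 B2m UMIs in PBS (29 cells) and 13 H2-D1 and 1 B2m UMIs in Igfbpl1 (46 cells). The part of free RNA in the neurons' class I UMIs was not tested, nor were reads that H2-D1 shares with other genes through its 3' end.

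**Figure D5:**
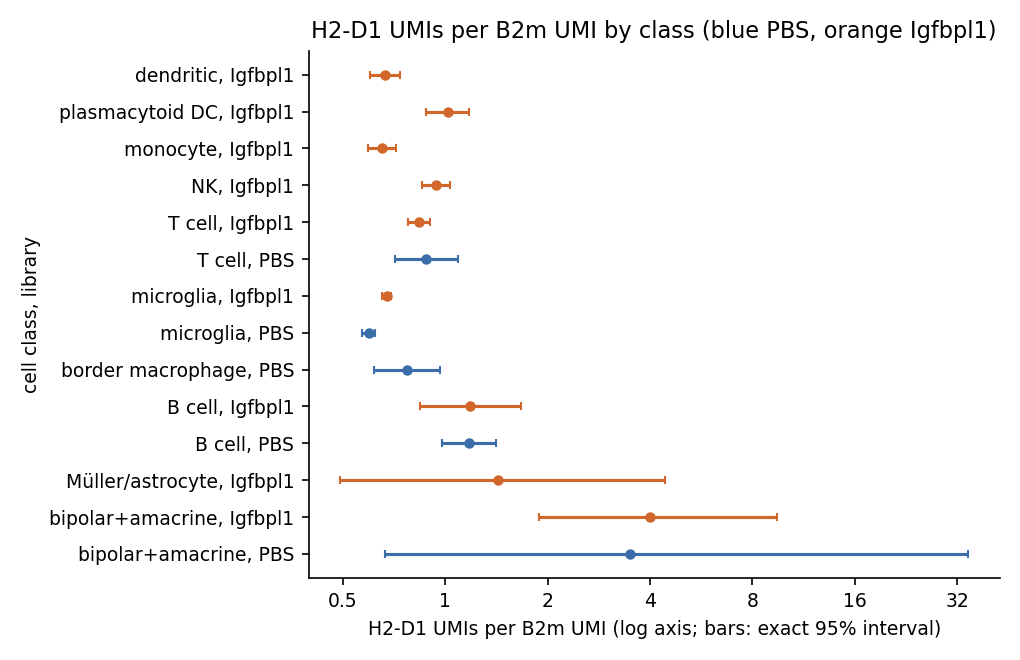
H2-D1 UMIs per B2m UMI by class and library, on a log axis with exact 95% intervals, PBS in blue and Igfbpl1 in orange. Immune classes lie between 0.594 and 1.18, and bipolar and amacrine neuron-like cells at 3.5 (PBS) and 4.0 (Igfbpl1) with wide intervals.

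Müller glia or astrocyte-like cells of the Igfbpl1 library (25 cells) lay between neurons and immune cells, at 968 CPM (714 to 1284) for the 10 genes, 0.145 (0.107 to 0.192) times microglia-like cells, with 7 of the 8 genes measured called lower (33.0% of all genes). Of the 7, H2-Q7 and Tapbp passed the filter only through their level in microglia-like cells. The ratio intervals of Tapbp (0.0584 to 1.77) and Psmb8 (0.275 to 1.26) included equality. With the looser marker rule the bipolar and amacrine neuron-like level in Igfbpl1, 760 CPM, lay inside the interval of 714 to 1284. The Müller glia or astrocyte-like level under that rule was not computed. These Müller glia or astrocyte-like cells carried their own markers at 11115 CPM, with Gfap and Pax2 at 0, and microglial markers at 1392 CPM. Their immune genes stood at 343 CPM, that is 17 UMIs beside 48 of class I, a ratio of 2.82 (1.59 to 5.24). H2-K1 (13 UMIs), H2-D1 (10), Psmb8 (8) and B2m (7) made up most of them. The Psmb8 share was 40.0% (19.1 to 63.9), with an interval above that of the Igfbpl1 neurons (up to 8.74).

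Of the other pathway genes measured in microglia-like cells, 0 were called in either direction between the libraries, beside 3.68% and 5.33% of all genes. Below the level for measured genes, H2-T22, H2-Q6, Stat2, Irf7 and Lilrb4a passed 1.5-fold, all of them higher in Igfbpl1. The share of all genes below that level that passed was not computed, so these have no share to stand beside. Of 18 other class I chains 3 were measured: H2-M3 (79.6 and 86.4 CPM), which presents formylated peptides, Fcgrt (67.2 and 73.8 CPM), the neonatal Fc receptor, and H2-Q4 (63.8 and 76.4 CPM). The largest ratios were those of H2-T22 (19.3 and 37.9 CPM, 1.97, 1.39 to 2.83) and H2-Q6 (34.7 and 62.6 CPM, 1.81, 1.39 to 2.36), both below the level for measured genes. H2-Q6 had 67.6% of its 3' words to itself. Of 10 peptide supply and loading genes 8 were measured, and Hspa5, a chaperone of the endoplasmic reticulum, led in both level (527 and 694 CPM) and ratio (1.32, 1.23 to 1.41). Pdia3, which joins the loading complex, stood at 425 and 372 CPM, and the proteasome activator subunit Psme1 at 230 and 270 CPM (1.17, 1.05 to 1.31).

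Among 15 regulators 5 were measured. Irf8, a myeloid transcription factor, stood at 388 and 299 CPM and Nfkb1 at 299 and 289 CPM. The largest ratios belonged to Stat2, which carries the signal of type I interferon (19.7 and 47.3 CPM, 2.40, 1.72 to 3.41), and to Irf7 (30.8 and 65.8 CPM, 2.14, 1.63 to 2.83), which was also in the interferon list, and both lay below the level for measured genes. Of 7 interferon ligands and receptors 4 were measured in microglia-like cells. Ifngr1, a chain of the interferon gamma receptor, stood at 426 and 327 CPM (0.768, 0.704 to 0.837) and Ifnar2, a chain of the type I receptor, at 305 and 273 CPM. Ifnar1, the partner of Ifnar2, had the largest ratio with UMIs in both libraries (1.25, 0.979 to 1.60), followed by Ifnb1, a type I ligand (0.925, 0.622 to 1.39). Ifng itself was found in NK-like (1147 CPM) and T cell-like cells (386 CPM) of the Igfbpl1 library and had 4 UMIs in the 30 T cell-like cells of the PBS library.

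Of 13 genes listed as receptors of class I molecules, 0 were measured in microglia-like cells. Lilrb4a, at 33.0 and 60.6 CPM (1.84, 1.41 to 2.42), and Pirb, at 21.4 and 28.2 CPM, had the highest levels there. Klrd1, which encodes CD94 and pairs with NKG2 chains to read the H2-T23 product, had the largest ratio in microglia-like cells (3.09, 1.25 to 9.15, on 6 and 27 UMIs). It stood at 2050 CPM in NK-like and 660 CPM in T cell-like cells of the Igfbpl1 library. Cd8b1, a chain of the CD8 co-receptor, stood at 320 CPM in PBS and 150 CPM in Igfbpl1 T cell-like cells.

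Likeness to the 10 genes was measured as Pearson's correlation with their mean log2(CPM + 10) over the 15 class and library points with at least 20 cells, among 3519 genes. The most alike were Tspo (0.974), Ostf1 (0.974), Actb (0.964), Cd52 (0.959) and Arpc1b (0.957), followed by Glipr1, Atp6v0e, Cyba, Epsti1 and Fxyd5 down to 0.940. These points share libraries and are mainly ordered by immune cells against neurons, so the values only describe. Of the 10 genes themselves H2-K1 came closest to the mean (0.987) and Nlrc5 was farthest (0.766).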

How the data were processed

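Single-cell 3' RNA libraries of CD45+ retinal cells, 1 per group, were analysed from deposited tables of UMI counts per gene and cell, which were not normalised. Cell Ranger 3.1 and the mm10 build are given by the submitters' processing notes, and no source states how cells had been filtered. The PBS library held 3795008 UMIs (median 3433 per cell) and the Igfbpl1 library 9463631 (2355.5). Members and lists were chosen with earlier results of these data known, and the marker lists came before the numeric rule for classes, which was set after marker levels had been seen. A cell joined the class with the largest share of its markers detected, given 3 UMIs over 3 markers, and no unrelated class with 3 UMIs over 2 markers. Classes rest on rebuilt names.

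UMIs were summed per class and library and scaled to CPM. Intervals (95%) are exact Poisson for levels, Clopper-Pearson for shares and conditional binomial for ratios, and cover counting error only. A count of 0 allows up to 3. With 1 library per group no test was run, and no fold carries a p. Genes were measured at 50 CPM and 20 UMIs, with 10 CPM added on the log scale. Scrublet, run in scanpy 1.11.5, called 6 PBS and 62 Igfbpl1 cells doublets; they were kept and left out as an alternative. Mitochondrial UMIs had medians of 1.27% and 1.34%. All 10 genes are named, and list genes are the 2 highest in level and in ratio. The ratio script was tested on simulated data. Tools were Python 3.11.15, pandas 2.3.3, numpy 2.4.6, scipy 1.17.1 and matplotlib 3.10.9.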

Additional observations from a re-analysis of the deposited data

Results flagged for a closer look

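H2-T23 was set aside because its ratio, Igfbpl1 over PBS, lay on opposite sides of 1 in the 2 sets of microglia-like cells: 1.48 in Xist-only and 0.582 in Y-only cells. Each set holds cells of 1 library per group, and the difference between the sets was not tested. Of the last 300 bases of H2-T23, 59.3% of the 60-base words occur in no other gene, and the part of shared reads was not tested.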

How the results depend on the processing

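No paired analysis was possible because each group had 1 library and no test was run, and no library could be left out. Of 62 alternatives to the values over the 10 genes or a class, 44 moved them by less than their counting interval (for a count, by no more than 1.5 times). Of the single genes, H2-T23 (0.900) went to 1.48 in Xist-only cells, and Tap1 (1.32) and Psmb8 (1.10) went to 0.966 and 0.867 in Y-only cells, across equality. The median log2 ratio in microglia-like cells (0.43) was 0.99 in Xist-only cells, 0.18 in Y-only cells and 0.55 after scaling by the median of all genes, and the count of genes higher (3) was 7, 1 and 5. For the scaled count no share of all genes was computed. The summed level of T cell-like over microglia-like cells in Igfbpl1 (1.28) was 1.43 with cells thinned to 1000 UMIs and 1.43 as a mean of per-cell CPM, and that of dendritic-like cells (1.74) was 2.17 and 2.15, and 2.13 with a stricter marker rule (6 UMIs over 4 markers). A looser rule, chosen after seeing the data, ignored markers of other classes. It gave 1.15 for T cell-like cells, 0.107 in place of 0.0409 for bipolar and amacrine neuron-like cells, whose class I level went from 273 to 760 CPM, and a Psmb9 share of 57.0% in place of 52.0%. The count of genes higher in microglia-like cells (3) was 4 with the looser rule. It was 2 with the stricter rule, with thinning and as a mean of per-cell CPM. In these settings Psmb9 had ratios of 1.55, 1.42 and 1.54 and was no longer called with 10 CPM added. No share of all genes was computed for these counts either. The gradient with interferon UMIs (1.66 in both libraries) was 1.48 in PBS without thinning, and 1.46 (PBS) and 1.41 (Igfbpl1) without Ifi27l2a. Leaving out doublets or cells above 5% mitochondrial UMIs moved none of the 10 gene ratios beyond its counting interval. The depth leaves Tap1 and Nlrc5 in most classes, and all genes but H2-D1 in neurons, on few UMIs.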

Other observations

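Within T cell-like cells of the Igfbpl1 library, some class I genes stood at different levels by the receptor genes detected. B2m did not, at 2605, 2344 and 2246 CPM with overlapping intervals in the sets below. The 82 cells with UMIs of the gamma-delta receptor genes Trdc or Tcrg-C1 carried H2-D1 at 2457 CPM (2243 to 2687), the 56 with Cd8a or Cd8b1 at 1991 CPM (1765 to 2237) and the 18 with Cd4 at 1651 CPM (1263 to 2121). H2-T23 stood at 438 CPM (351 to 541.5), 304 CPM (220 to 409) and 379 CPM (207 to 636), with overlapping intervals. H2-Q7 stood at 847 CPM (702 to 1013) in the set with Cd8a or Cd8b1, where Nlrc5 stood at 148 CPM (91.8 to 227) on 21 UMIs. Both overlapped the gamma-delta and Cd4 sets, with H2-Q7 at 698 CPM (586 to 826) and 622 CPM (395 to 934). H2-K1 was lower in the set with Cd4, at 1407 CPM (1051 to 1846) beside 2452 (2238 to 2682) and 2217 (1978 to 2476). Psmb8 was lower there too, at 352 CPM (187 to 602) beside 877 (751 to 1018) and 805 (664 to 967). A cell can fall in more than 1 of these sets, and the differences were not tested.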
